A study of Mus musculus with 2 samples.

Results

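The miRNAs encoded inside the 4 mammalian Hox clusters were examined in small RNA libraries of the mouse embryonic heart. The members are all precursor entries listed as miR-10a, miR-10b, miR-196a, miR-196b or miR-615, with the arm and the copy number ignored. They made up 6 of the 568 entries of replicate 1 and 7 of the 523 entries of replicate 2. The study sequenced E9.5 hearts of wild type C57BL/6 embryos in 1 group of 2 replicates, with no treatment. There was therefore no contrast between conditions, and the labels do not say how many hearts or litters a replicate holds, so the spread between replicates may be technical.

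Hox genes encode transcription factors that give cells their position along the head-to-tail axis, and they lie in clusters in the order of their expression domains. The miR-10 genes lie near the Hox4 genes, the miR-196 genes next to or within Hox9 genes, and miR-615 in an intron of Hoxc5. In the heart-forming region, anterior Hox genes are known to be active in progenitors of the second heart field, whereas the posterior Hox9 to Hox13 genes are known for the trunk, tail and limbs. MiR-196 is known to pair with Hox transcripts, Hoxb8 above all.

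The mature sequences are shown first because the 5 names reduce to 3 seeds, the bases 2 to 8 that select targets. They are the RefSeq sequences (GRCm38.p6), 5′ to 3′, of the arm that carried most reads, with the seed in capitals.
miR-10a-5p: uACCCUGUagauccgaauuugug
miR-10b-5p: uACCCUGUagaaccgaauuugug
miR-196a-5p: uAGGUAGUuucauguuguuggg
miR-196b-5p: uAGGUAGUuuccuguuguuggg
miR-615-3p: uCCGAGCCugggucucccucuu
MiR-10a and miR-10b were identical at 22 of 23 bases, and their one difference was U12A, where the miR-10a base comes first and positions count from the 5′ end. MiR-196a and miR-196b were identical at 21 of 22 bases and differed by A12C, at the same position of the miRNA and outside the seed. None of the other names in the 620 entries carried one of these 3 seeds in the same place. The deposited consensus sequences began at base 1 of the RefSeq miRNA for every member. Those of miR-10a, miR-10b and miR-615-3p ended exactly 2 bases before the RefSeq 3′ end, as did 27 of 465 matched entries in replicate 1 (5.81%) and 26 of 445 in replicate 2 (5.84%), these members included.

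All precursors lay in Hox clusters on the strand of the Hox genes, as the map of the clusters shows (mm9, with GENCODE vM1 gene models). The miR-10a precursor, chr11:96178500-96178562 on the plus strand, overlapped the exon of a Hoxb4 transcript in its 5′ UTR. Hoxb5 ended 11065 bp before it and Hoxb3 began 6077 bp after it. The miR-10b precursor, chr2:74564131-74564192 on the plus strand, lay in an intron of Hoxd4 and also in an intron of a longer Hoxd3 transcript. The miR-196a-1 precursor, chr11:96126501-96126559, lay in no annotated protein-coding gene, 6211 bp before Hoxb9. The miR-196a-2 precursor, chr15:102803796-102803854, also lay in none, between Hoxc10 (1471 bp away) and Hoxc9 (3015 bp away), both precursors being on the plus strand. The miR-196b precursor, chr6:52180092-52180149 on the minus strand, lay in an intron of one Hoxa9 transcript and in a 5′ UTR exon of another, 1046 bp from Hoxa10. The miR-615 precursor, chr15:102845357-102845419 on the plus strand, lay in the intron of Hoxc5 between its coding exons.

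**Figure D1:**
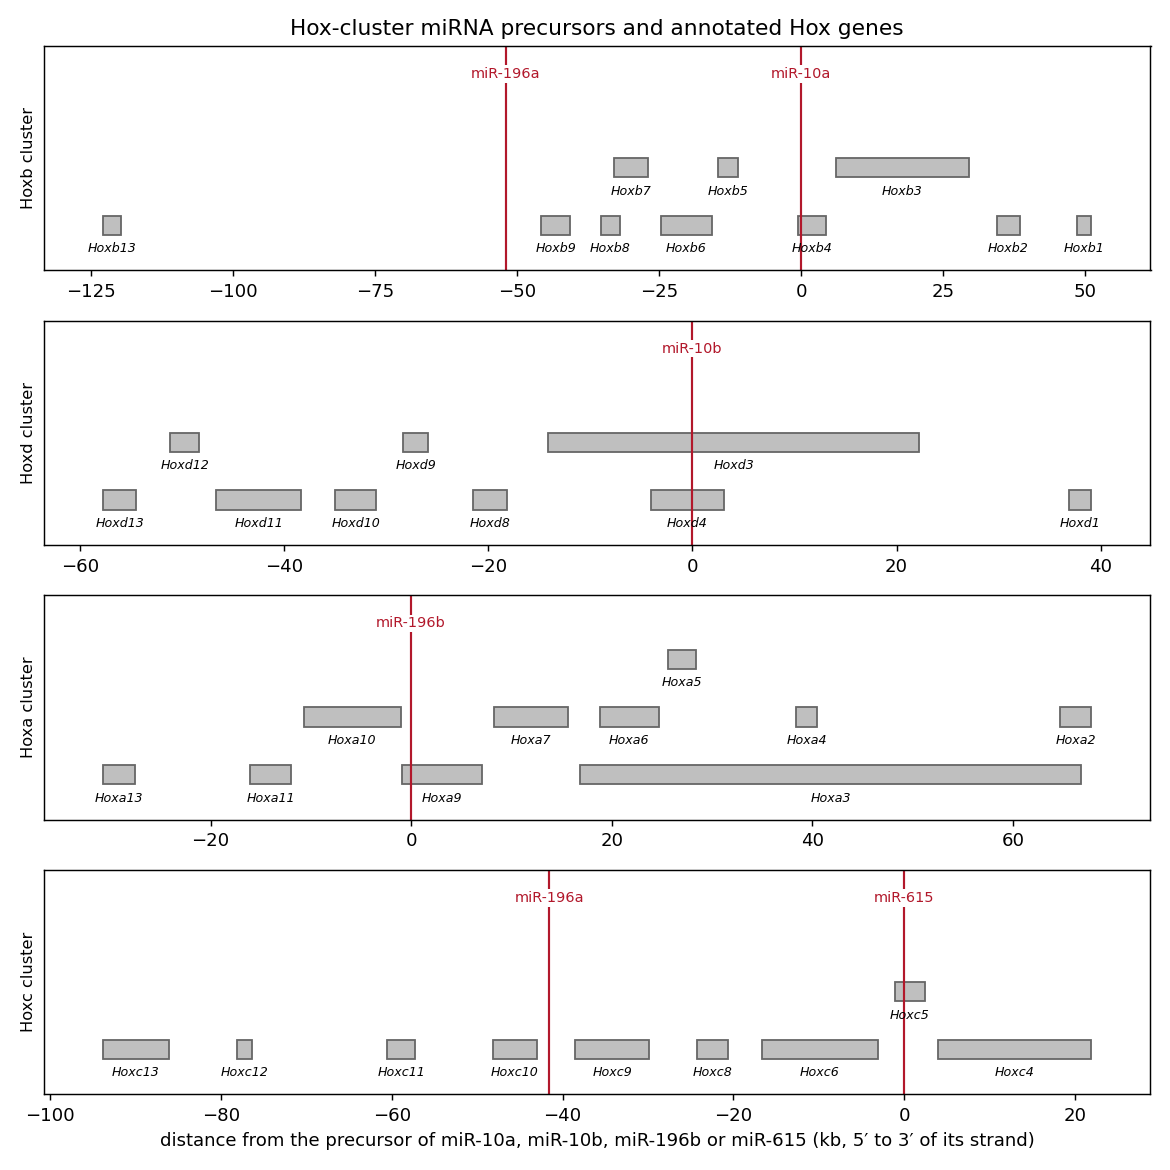
Annotated Hox genes that start no more than 70 kb downstream (grey boxes, in rows only to keep them apart) and the miRNA precursors (red lines) of the 4 clusters, against distance in kb from the precursor of miR-10a, miR-10b, miR-196b or miR-615, in the direction of its strand. Each precursor lies within or next to a Hox gene, and where a panel holds miR-196a beside miR-10a or miR-615, miR-196a lies on the Hox13 side.

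Read counts came from miRDeep2, which assigns reads to the arms and loop of each known hairpin, and the mature reads of a library summed to 4942257 (replicate 1) or 4806179 (replicate 2). Levels are given in RPM, the mature reads of an entry scaled to a library of 1000000 mature reads. The 95% Wilson intervals cover counting error only, since PCR copies were not marked and reads are not independent molecules. Markers of cell types were summed with each mature sequence counted once, in the markers and in the total, since the tables repeat a sequence at each locus. Those of cardiac muscle (miR-1a, miR-133a, miR-208a, miR-208b and miR-499) held 15.6% to 16.3% of mature reads, or 22.6% to 23.5% with each entry counted, although miR-208a was listed only in replicate 1. For the list of smooth muscle and mesenchyme (miR-143 and miR-145a), the share counted once was 9.36% to 10.8%. It was 3.94% to 3.95% for the endothelium list (miR-126a), 0.161% to 0.198% for blood and 0.132% to 0.147% for liver and gut. The epithelium list held 0.0374% to 0.0381% and the neural list 0.00509% to 0.00660%. Whether heart muscle itself also makes the markers of these lists was not tested. With each entry counted, the neural share was 0.0148% to 0.0193%. The blood list had 4 of 5 markers, with miR-223 in neither replicate and miR-144 in replicate 2 alone. Most of its reads counted once were miR-486a, 5456 of 5811 in replicate 1 and 6534 of 6941 in replicate 2. The neural list had 2 of 3, with miR-137 in neither and miR-124 in replicate 1 alone, as 2 reads of its 5p arm listed at 3 loci, so that miR-9 made up nearly all of it. In such bulk samples, fewer cells of a type and less RNA per cell cannot be told apart.

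The Hox-cluster miRNAs were scarce in the E9.5 heart and led by miR-10a. Together they held 1782 and 1662 mature reads, in replicates 1 and 2. This is 0.0361% (Wilson interval 0.0344% to 0.0378%) and 0.0346% (0.0330% to 0.0363%) of the library, or 0.0353% ± 0.0010 (SD, n = 2). The levels fell in the same order in both replicates, miR-10a, miR-196b, miR-10b, miR-615-3p and miR-196a, so a miRNA from the posterior part of a cluster, miR-196b, stood above the anterior miR-10b. MiR-10a and miR-10b together made up 79.8% of the members' reads in replicate 1 and 75.9% in replicate 2.

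MiR-10a-5p, of the Hoxb4 locus, had 1192 and 1108 mature reads, 241 RPM in replicate 1 (interval 228 to 255) and 231 RPM in replicate 2 (217 to 245), with a mean of 236 ± 7.53 (SD, n = 2). It ranked 185 of the 471 entries listed in both replicates, between miR-20b-5p with 236 RPM and miR-493-3p with 234 RPM on average. These 3 means differed by less than the SD of miR-10a, though neighbours in rank are close by the way they are chosen. MiR-10a stood in the middle of the range.

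MiR-196b-5p, of the Hoxa9 locus, had 290 and 283 mature reads, which is 58.7 RPM (52.3 to 65.8) and 58.9 RPM (52.4 to 66.2). Its mean of 58.8 ± 0.14 RPM (SD, n = 2) ranked 251, and of all members it changed least between the replicates. Its neighbours in rank were miR-675-5p with 60.6 ± 1.85 and miR-146a-5p with 57.5 ± 8.68 RPM (SD, n = 2). Both lay farther from the miR-196b mean than the SD of miR-196b, but no farther than their own SDs.

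MiR-10b-5p, of the Hoxd4 locus, had 230 and 154 mature reads, which is 46.5 RPM (40.9 to 53.0) and 32.0 RPM (27.4 to 37.5). Its intervals did not overlap, and the mean was 39.3 ± 10.2 RPM (SD, n = 2) at rank 278. Its neighbours, miR-496a-3p with 40.0 and miR-3099-3p with 39.1 RPM on average, were closer to that mean than this spread.

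MiR-615-3p, of the Hoxc5 intron, had 56 and 81 mature reads, which is 11.3 RPM (8.73 to 14.7) and 16.9 RPM (13.6 to 20.9). Both tables list this precursor under the name miR-615-5p and mark the reads as lying on the other arm, and the consensus sequence was that of miR-615-3p. Its mean of 14.1 ± 3.90 RPM (SD, n = 2) ranked 326, between miR-3062-5p with 14.5 and miR-3066-5p with 13.9 RPM on average.

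MiR-196a-5p has the same mature sequence at both of its loci, so reads of that sequence alone cannot be assigned to one of them. Its entries are therefore not independent, although their counts were not equal. The reason for that difference was not tested. The Mir196a-1 entry, next to Hoxb9, had 8 and 14 mature reads, which is 1.62 RPM (0.820 to 3.19) and 2.91 RPM (1.74 to 4.89). The Mir196a-2 entry, between Hoxc10 and Hoxc9, had 6 and 11 mature reads, which is 1.21 RPM (0.556 to 2.65) and 2.29 RPM (1.28 to 4.10). These levels were above the floor set at 3 reads, 0.607 RPM in replicate 1 and 0.624 RPM in replicate 2, but their intervals were wide and overlapped between replicates. By mean level the entries ranked 424 and 438 of 471, and the neighbours of the higher one were miR-7065-3p with 2.35 and miR-547-3p with 2.26 RPM.

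**Figure D2:**
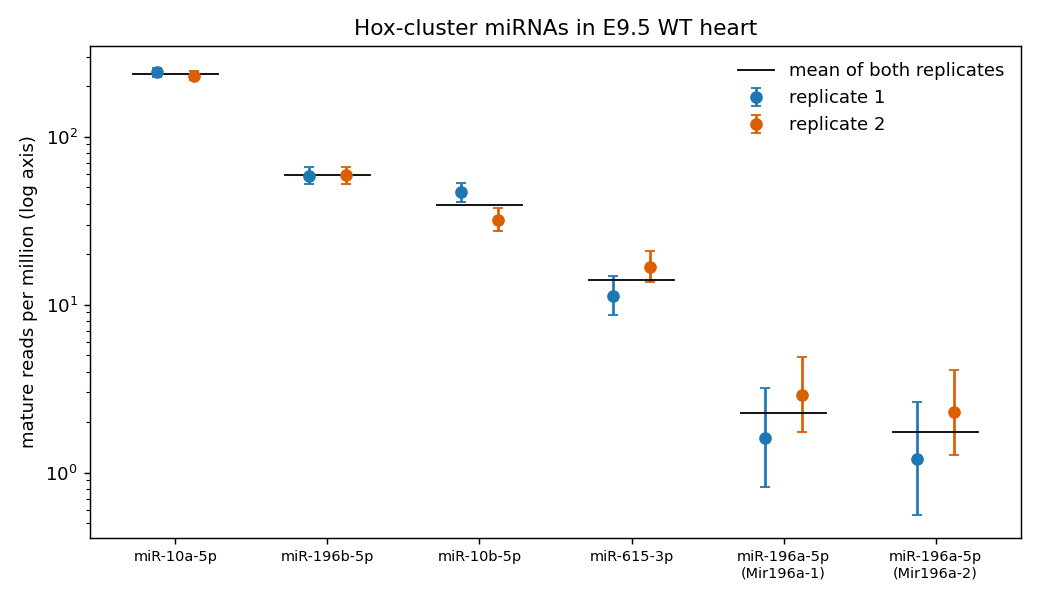
Level of each Hox-cluster miRNA in RPM on a log axis, with a point for each replicate, bars for the 95% Wilson interval (counting error only) and a line for the mean. The miR-10a points sit at 241 and 231, miR-196b at 58.7 and 58.9, miR-10b at 46.5 and 32.0, miR-615-3p at 11.3 and 16.9, and both miR-196a entries below 3.

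**Figure D3:**
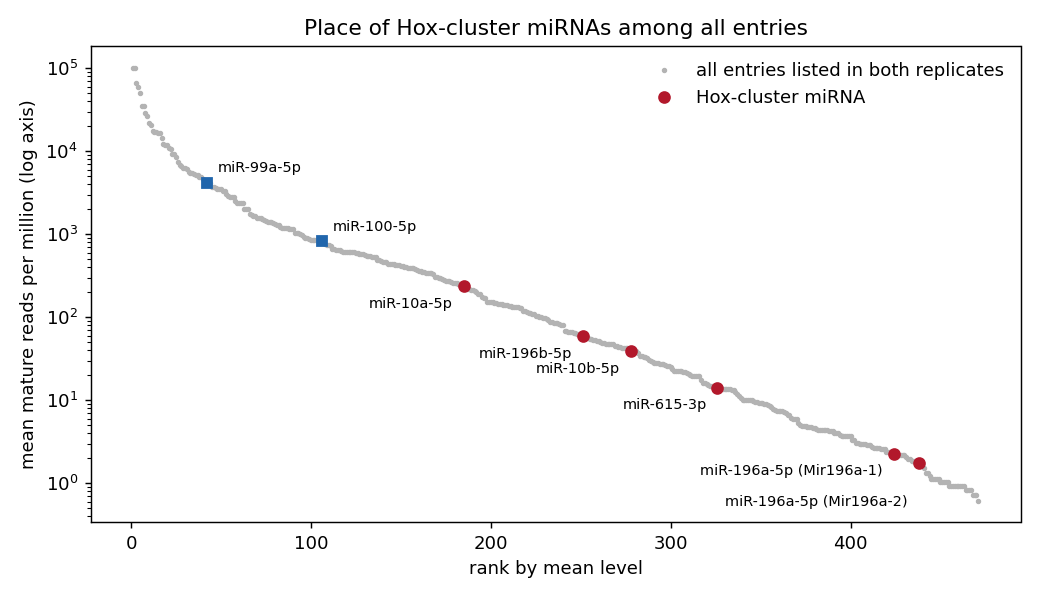
Mean level of all 471 entries listed in both replicates (grey, log axis) against rank, with the Hox-cluster miRNAs in red and miR-99a-5p and miR-100-5p as blue squares. MiR-10a-5p is the highest member at rank 185, and miR-99a-5p and miR-100-5p stand above it at ranks 42 and 106.

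Within the miR-10 family, the Hoxb4 copy outweighed the Hoxd4 copy. The ratio of miR-10a to miR-10b reads was 5.18 in replicate 1 (exact binomial interval 4.5 to 5.99) and 7.19 in replicate 2 (6.07 to 8.57), with a mean of 6.19 ± 1.42 (SD, n = 2). MiR-10a thus held 83.8% and 87.8% of the reads of both. The order was the reverse of this in the miR-196 family, where the b copy led, with 290 and 283 reads of miR-196b against at most 14 in a miR-196a entry. The ratio of miR-196b to miR-10b was 1.26 (1.06 to 1.51) in replicate 1 and 1.84 (1.5 to 2.25) in replicate 2, above 1 in both. Because miR-10a and miR-10b differ at 1 base, as do miR-196a and miR-196b, their separation depends on the mismatches allowed in mapping, which are not given in the sources used here.

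MiR-99a and miR-100, encoded outside the Hox clusters, were compared because their sequences resemble miR-10. MiR-100-5p matched miR-10a at 20 bases and miR-99a-5p at 19, out of 22, once base 6 of miR-10a was skipped, but their seed differs.
miR-99a-5p: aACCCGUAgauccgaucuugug
miR-100-5p: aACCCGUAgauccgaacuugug
MiR-99a-5p had 20212 and 20573 mature reads, and miR-100-5p had 4076 and 3932. Together they stood at 4914 RPM in replicate 1 and 5099 RPM in replicate 2, which is 17.1 and 19.4 times the 288 and 263 RPM of miR-10a and miR-10b. The gap was larger than the spread between the replicates, and no test over samples was run.

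To see which levels held between the replicates, each entry found in both tables whose mature reads summed to 20 or more was tested for an unequal share of the libraries (two-sided exact binomial test). The p-values were Benjamini-Hochberg adjusted over all 431 such entries. Of the 5 member entries tested, 1 differed at an adjusted p of 0.05, against 41.1% of all entries, so the members' share was not above the background. The entry was miR-10b-5p, whose log2 ratio of replicate 2 over replicate 1 was -0.54, with an adjusted p of 0.0012 in this exact test. In that direction, higher in replicate 1, 13.5% of all entries were called, and 27.6% were called in the other, where no member was. A larger absolute log2 ratio was seen in 10.7% of the tested entries. Over the alternatives its adjusted p ran from 0.00019 to 0.0015 in this exact test. MiR-10a-5p gave a log2 ratio of -0.07 (adjusted p = 0.43, same exact test), and miR-196b-5p gave 0.01 (adjusted p = 0.999, same exact test). For miR-615-3p the log2 ratio was 0.57, with an adjusted p of 0.061 in the exact test of mature reads. When all reads of the precursor were used, its adjusted p was 0.0088 by the same exact test, and 2 of 5 members were then called. Over all alternatives the adjusted p of miR-615-3p ran from 0.0088 to 0.11 in this exact test. The Mir196a-1 entry gave a log2 ratio of 0.85 (adjusted p = 0.34, same exact test), and the Mir196a-2 entry, with 17 reads in sum, was not tested. These tests compare 2 libraries and cover read-counting error only. The median absolute log2 ratio was 0.54 over the 5 members, which is the value of miR-10b-5p, and 0.19 over all 431 entries. The members with the most reads, miR-10a-5p and miR-196b-5p, lay below 0.19. Those with fewer reads lay at 0.54 or above. With the library totals, 119 entries were called higher in replicate 2 and 58 higher in replicate 1. TMM scaling gave 86 and 92, and DESeq2 size factors gave 78 and 98.

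As ratios of reads, miR-10a to miR-10b and miR-196b to miR-10b each differed between the libraries beyond counting error (adjusted p = 0.0081 for both, Fisher's exact test over 3 pairs of members). Both pairs hold miR-10b, so they restate its call and add no independent evidence, and the share of other pairs that differ in this way was not computed. For miR-10a to miR-196b the adjusted p was 0.61 in the same exact test. With each mature sequence counted once, 3 of the 7 marker lists were also lower in replicate 2: smooth muscle and mesenchyme (10.8% and 9.36%), neural tissue (0.00660% and 0.00509%) and endothelium (3.95% and 3.94%). The other 4 were higher in replicate 2, as was miR-615-3p: cardiac muscle (15.6% and 16.3%), blood (0.161% and 0.198%), liver and gut (0.132% and 0.147%) and epithelium (0.0374% and 0.0381%). The small differences depend on the totals used. Reads counted once were 564629 and 569643 for cardiac muscle and 1352 and 1335 for epithelium, and endothelium was nearly equal in share. TMM and DESeq2 scaling were not applied to the lists. In the cardiac list, miR-1a alone had more reads counted once in replicate 2 (492873 and 503921). MiR-133a (60757 and 57080), miR-499 (8262 and 7061) and miR-208b (1877 and 1581) had fewer, and miR-208a was listed only in replicate 1. In the liver and gut list, miR-192 had fewer reads (1979 and 1739) and miR-122 (2083 and 2664) and miR-194 (717 and 731) more. Within the blood list, miR-486a had 5456 and 6534 reads and miR-144 was listed only in replicate 2, while miR-142a had 227 and 207 reads and miR-451a 128 and 127. The part of these lists in the miR-10b and miR-615-3p values was not tested.

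**Figure D4:**
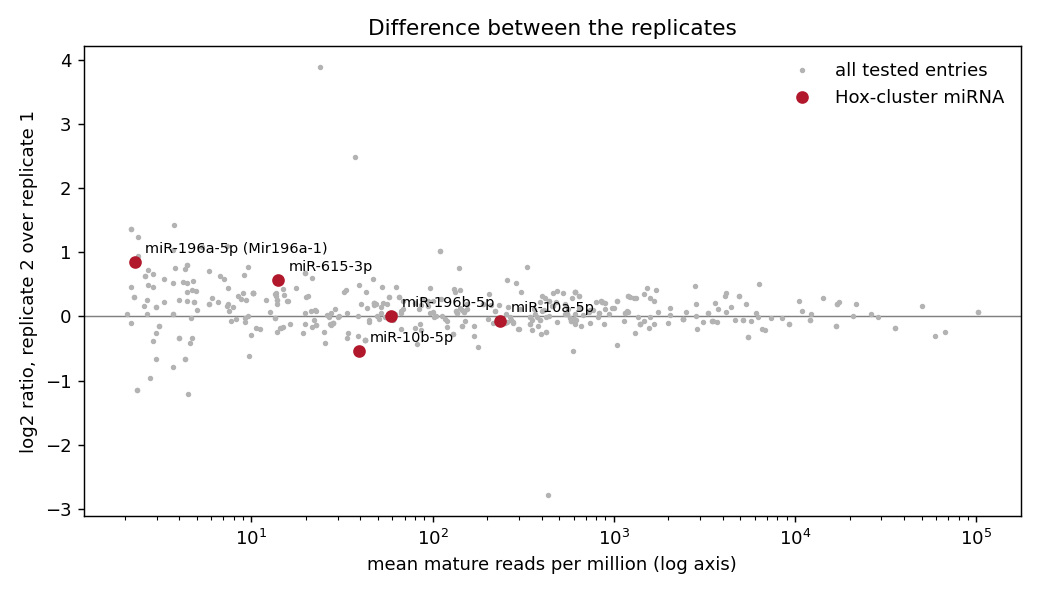
Log2 ratio of replicate 2 over replicate 1 for the 431 tested entries (grey) and the 5 tested Hox-cluster entries (red), against the mean level in RPM on a log axis. MiR-10a-5p and miR-196b-5p lie near 0, miR-10b-5p lies at -0.54 and miR-615-3p at 0.57.

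The members also differed in the use of the opposite arm, called the star arm. The miR-10a, miR-10b and miR-196b precursors had no star read in either replicate. For miR-10a this was 0 of 2300 reads over both replicates, which allows a star share of up to 0.130%, and for miR-196b 0 of 573, which allows up to 0.524%. For miR-10b it was 0 of 384, which allows up to 0.781%. Of the 187 entries that reached 1000 mature reads in each replicate, 34 had no star read (18.2%), but several of these overlap another entry of the same hairpin that has star reads. With overlapping entries taken as 1 hairpin, 14 of 165 hairpins had none (8.48%), miR-10a among them. MiR-196b and miR-10b did not reach 1000 reads. Counted by entry, 53 of 270 had no star read at a minimum of 200 mature reads in each replicate (19.6%), which miR-196b reached. At a minimum of 100, which miR-10b also reached, 67 of 305 entries had none (22.0%). MiR-615 used both arms. Its 5p arm, printed here because it is the arm of the listed name, had 4 of 60 arm reads in replicate 1 and 15 of 96 in replicate 2.
miR-615-5p: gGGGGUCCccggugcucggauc
These are star shares of 6.67% (Wilson interval 2.62% to 15.9%) and 15.6% (9.70% to 24.2%), whose intervals overlap. The Mir196a-1 precursor had 1 and 3 star reads beside its 8 and 14 mature reads. The Mir196a-2 precursor, whose star arm has another sequence, had 0 star reads beside its 6 and 11 mature reads. Over all members, the mature arm held 99.3% ± 0.56 of the reads on both arms (SD, n = 2).

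The miRDeep2 score, which rises with evidence for a hairpin that is cut on both arms, did not follow abundance among the members. MiR-615 scored 32 and 50 with fewer than 100 mature reads, whereas miR-10a scored 1.5 in both replicates with more than 1000. MiR-10b scored 1.9 and miR-196b 1.8 in both, below the median score of all entries, 2.5 in replicate 1 and 2.6 in replicate 2. Among all entries with at least 100 mature reads, those without a star read had a median score of 1.45 and 1.35, and those with star reads 910 and 930. With overlapping entries taken as 1 hairpin, the medians were 2.0 and 2.1 without and 910 and 940 with star reads.

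Matches to the 3 seeds were counted in the longest annotated 3′ UTR of each gene (GENCODE vM1) to place the sequences beside the Hox transcripts they are known to pair with. A match was 7 bases pairing with miRNA bases 2 to 8, or 6 bases pairing with bases 2 to 7 followed by an A, or the 8-base site with both, searched on the transcript strand only. The shorter sites are the first or the last 7 bases of the 8-base site. This is a description of the reference sequence, and no transcript was measured here.

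For the miR-10 seed (8-base site ACAGGGTA), 5 of 39 Hox genes held a match (12.8%), against 2984 of all 19915 genes (14.98%). The 8-base site was in 1 of them, Hoxd1. For the miR-196 seed (8-base site ACTACCTA), 9 of 39 Hox genes held a match (23.1%), against 9.58% of all genes. The 8-base site occurred in 5 of them (12.8%, against 1.12% of all genes), namely Hoxa5, Hoxa7, Hoxb6, Hoxb7 and Hoxc8. They lie in the part of their clusters anterior to miR-196, as do most Hox genes of those clusters. For the miR-615-3p seed (8-base site GGCTCGGA), 3 of 39 Hox genes held a match (7.69%), against 3.69% of all genes, and none held the 8-base site. The 3′ UTRs of Hox genes had a median length of 1117 nt, against 893 nt for all genes.

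**Figure D5:**
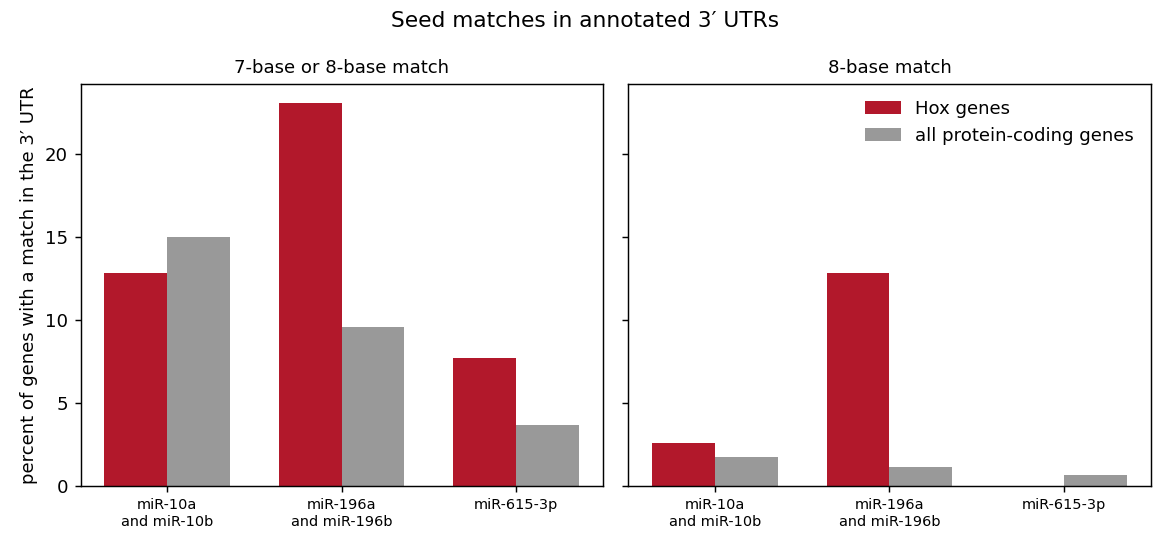
Percent of the 39 Hox genes (red bars) and of all 19915 protein-coding genes (grey bars) whose longest 3′ UTR holds a match to each seed, for matches of 7 or 8 bases (left) and the 8-base site alone (right). For miR-196 the bars stand at 23.1% and 9.58% on the left and at 12.8% and 1.12% on the right.

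Pairing over the whole miRNA singled out another Hox transcript. Counting Watson-Crick and G:U pairs, miR-196a-5p paired at all 22 bases with a site in the 3′ UTR of Hoxb8, a gene that lies between Hoxb9 and Hoxb7, downstream of Mir196a-1. The site lies at chr11:96146202-96146223 of mm9 on the plus strand and starts at nucleotide 418 of a 3′ UTR of 855 nt. It is shown 5′ to 3′ with the Watson-Crick pairs to miR-196a-5p in capitals.
Hoxb8 site: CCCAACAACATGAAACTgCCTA
It had 21 Watson-Crick pairs and 1 G:U pair, at base 5 of the miRNA and so within the seed, which is why Hoxb8 is not among the seed matches above. MiR-196b-5p, the more abundant of the pair in the heart, paired with the same site at 21 of 22 bases, with base 12 unpaired. As many paired bases were reached in 14 of 19768 genes (0.0708%). Of 19768 genes with a 3′ UTR of sufficient length, 2 had a site paired at all 22 bases with miR-196a-5p, and the other was Rps6ka2, with 12 Watson-Crick and 10 G:U pairs. For miR-10a-5p the best Hox site, in Hoxa6, paired at 19 of 23 bases, a number reached by 264 genes (1.34%). It had 13 Watson-Crick and 6 G:U pairs, and base 2 of the miRNA, within the seed, was unpaired. MiR-10b-5p paired with the same Hoxa6 site at 18 of 23 bases, reached by 1454 genes (7.36%). For miR-615-3p the best Hox site, in Hoxb2, paired at 19 of 22 bases (15 Watson-Crick and 4 G:U pairs), reached by 164 genes (0.830%). These percentages are shares of single genes, whereas each Hox site named is the best over all 39 Hox genes, so the percentages overstate how rare it is.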

How the data were processed

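Total RNA of E9.5 WT hearts gave 2 small RNA libraries (TruSeq kit). With miRDeep2 and the mm9 genome, the authors made and deposited raw read counts per precursor of known miRNAs, 1 table per replicate, without normalization. The deposited miRDeep2 score of each precursor is rounded. Versions of miRDeep2 and miRBase, trimming and mismatch settings are not given in the sources used here. A read can be counted at several entries that share a mature sequence.

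Coordinates were brought to count from 1, after which all precursors were identical to NCBIM37. Entries of the replicates were paired by an overlap of at least 50% of both precursors, which gave 620 entries, 471 of them in both. Where reads lay opposite the named arm, the entry was named by the arm read. The replicates were compared by the exact binomial test with library totals, and single-library shares have 95% Wilson intervals. That test was tried on simulated counts with counting error only, a setting that leaves out any further spread between libraries. With 1 group, no condition was tested. The members and lists were chosen with earlier results of these data known. The text names all members, their neighbours in rank and in the genome, miR-99a and miR-100, the marker lists, the Hox genes with an 8-base seed match and the best-paired Hox site. Python 3.11.15 was used, with scipy 1.17.1 for tests, pysam 0.24.0 for sequences, pandas 2.3.3 and numpy 2.4.6 for tables and matplotlib 3.10.9 for plots. Scaling factors came from edgeR 4.0.16 and DESeq2 1.42.0 under R 4.3.3.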

Additional observations from a re-analysis of the deposited data

Results flagged for a closer look

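A further miR-196a entry was listed in replicate 2 only and entered no comparison between replicates. It had 11 mature reads, no star read and a miRDeep2 score of -6.7, and lay at chr15:102803771-102803817 of mm9 on the plus strand, where it overlaps the Mir196a-2 precursor. Its mature bases and its read count equal those of the Mir196a-2 entry in that replicate. It was singled out as a signal of more than 3 reads in data that the comparisons did not use.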

How the results depend on the processing

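The summed share of the members rose from 0.0353% to 0.0480% of mature reads with each mature sequence counted once, since entries with repeated sequences then leave the total. Between 0.0347% and 0.0352% was found with all reads of the precursor, with a minimum of 10 mature reads in each replicate, or with overlapping entries counted once, and 0.0348% without miR-196a. The last 2 were chosen after seeing the data, as were the marker shares with each sequence counted once and the star and score values per hairpin. The number of members that differed between replicates rose from 1 to 2 with all reads of the precursor and was 1 under the other alternatives. Without one or the other replicate, the share ran from 0.0346% to 0.0361%, the ratio of miR-10a to miR-10b from 5.18 to 7.19, the miR-10 part of the members from 75.9% to 79.8% and the mature-arm share from 98.9% to 99.7%. The number of all entries that differed ran from 138 to 184 over the alternatives, against 177. Any annotated 3′ UTR in place of the longest left 5, 9 and 3 Hox genes with a match to miR-10, miR-196 and miR-615-3p, but added an 8-base miR-10 site in Hoxa3. No paired analysis was possible because there is only 1 group of samples. Depth limits miR-196a most, with 6 to 14 reads an entry.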

Other observations

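The letters of the miR-196 seed, AGGUAGU, also stood in the let-7 family, shifted by 1 base. In 13 of the 620 entries they lay at bases 3 to 9 of the mature sequence, and these were let-7a, let-7b, let-7c, let-7d, let-7f, let-7g, let-7i and miR-98. The seeds of miR-10 and miR-615-3p were found at bases 3 to 9 of no entry.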
